A study of Mus musculus with 6 samples.

Results

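The genes described here include 3 metallothioneins (Mt1, Mt2 and Mt3) and the zinc-sensing transcription factor Mtf1. The others are the metal exporters Slc30a1 and Slc30a10, and the metal importers Slc39a8, Slc39a10 and Slc39a14. All 9 genes were taken by gene symbol from the platform annotation, and they carried 21 of the 45101 probe sets on the array. The genes were chosen by their log2 values in these same exposed and control arrays, so their difference between the groups is given as a description, without p-values. Whole spleens came from Balb/c mice of 6 to 8 weeks, labelled female. Of the 6 arrays, 3 were of exposed mice and 3 of control mice. The exposed mice were gavaged with PFOS (perfluorooctane sulfonate, a fluorinated surfactant that persists in the body) over 3 weeks. Their daily dose was 10 mg for each kg of body weight. Control mice received no PFOS. Whether control mice were given a vehicle is not stated in the labels. Each spleen was hybridized to 1 Affymetrix Mouse430_2 array, and the values are log2 levels from RMA, the authors' method of background correction, normalization between arrays and summary per probe set.

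Metallothioneins are small cysteine-rich proteins that bind zinc, copper and cadmium and release zinc again when oxidized. When free zinc rises in a mouse cell, the zinc-finger protein MTF1 binds metal response elements in the promoters of Mt1, Mt2 and the exporter gene Slc30a1 and raises their transcription. Proteins of the SLC30 family move zinc out of the cytosol, to the outside or into vesicles, and proteins of the SLC39 family move it in. In spleen, zinc supply bears on lymphocytes, on macrophages and on the red cell precursors that mouse spleen holds.

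The correlation between arrays of a group, over 13101 genes, was at least 0.9985, and that between arrays of different groups at most 0.970. Limma called 66.6% of the genes at an adjusted p under 0.05, with 26.0% lower in PFOS and 40.6% higher. The median change of all genes was 0.05 on the log2 scale. All 6 arrays went against the label female: the 3 probe sets of Xist, which is expressed from the inactive X chromosome, read 3.71 to 5.86, while the brightest probe sets of the Y-linked genes Eif2s3y and Kdm5d read 9.62 to 9.91 and 7.54 to 7.94. Nothing in the labels says whether the arrays are separate animals beyond the words biological replicate, so errors and p-values measure only the spread between these arrays.

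Mt1, Mt2 and the importer Slc39a8 differed most among the 8 genes that passed the filter on low values. Mt1, Mt2 and Slc39a8 were 2.01-fold, 2.43-fold and 3.22-fold lower in PFOS, with log2 changes of -1.01, -1.28 and -1.69. Mtf1 and Slc30a1 were lower by less, with changes of -0.40 and -0.28. Mt3, the other metallothionein, changed by only -0.11. Slc39a10 was higher by 0.31. Slc39a14 showed no difference between the groups beyond its spread. In a whole organ, fewer cells of a type and less RNA per cell cannot be told apart in any of these values. The summed level of 12 hepatocyte markers, which spleen cells are not known for, was 11.1-fold lower in PFOS. Of the 12, 7 had PFOS means under the floor of that filter and passed it through their control levels, which fixed their direction. What share of the values of the 8 genes came from hepatocytes was not tested.

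Of the 9 genes, 8 passed the filter on low values, and all 8 had means above the filter floor of 5.62 in both groups. Limma's threshold was met by 6 genes that were lower and by 1 that was higher, while 1 was not called; nothing is read from these counts, since the contrast chose the genes and 66.6% of all genes were called. The 6 lower genes had no overlap between groups, as had 27.8% of all genes on that side, and nor had the 1 higher gene, as had 43.2%. The median change of the 8 genes was -0.34, beside 0.05 over all genes tested. At least 2-fold lower were 3 of the 8, beside 2.92% of all genes. Since the contrast chose the genes, nothing is read from this median or this count either. Among the 21 probe sets, 14 lay above the floor. A fit over all 45037 probe sets without a filter called 49.5% of them (19.3% lower, 30.2% higher), and of the 21 it called 9 lower and 3 higher. Groups did not overlap for 10 of the 21 on the lower side and 3 on the higher, beside 22.9% and 35.4% of all probe sets. These 21 hold repeated measures of the same genes and are not independent of each other.

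**Figure D1:**
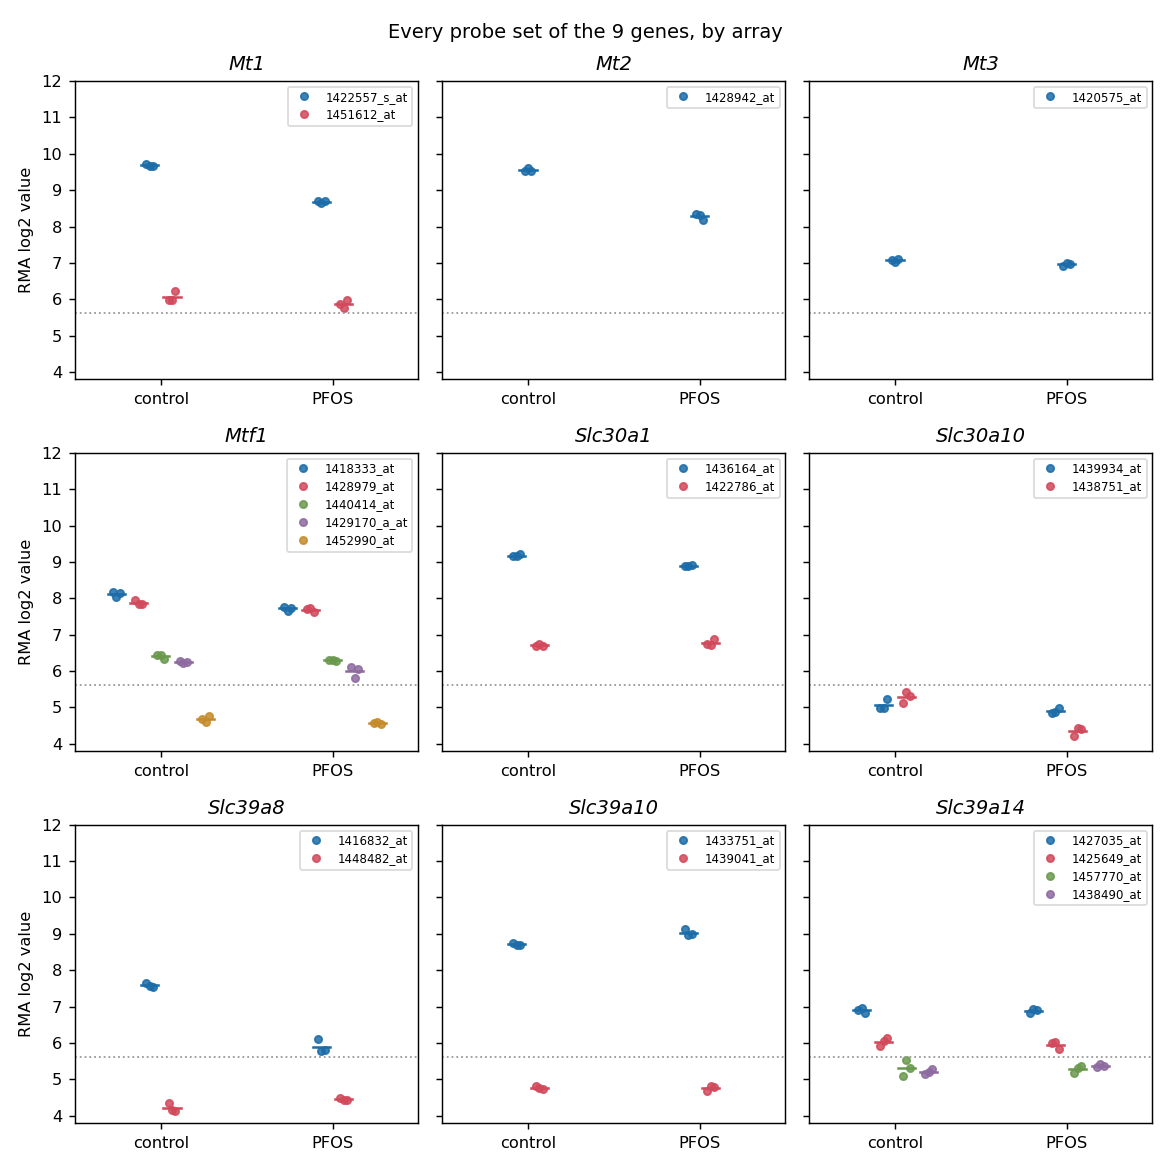
RMA log2 value (vertical axis) of every probe set of the 9 genes in the 3 control and 3 PFOS arrays; each point is 1 array, each short line a group mean, each colour a probe set, and the dotted line is the filter floor of 5.62. The brightest probe sets of Mt1, Mt2 and Slc39a8 sit lower without overlap (changes of -1.01, -1.28 and -1.69), that of Slc39a10 sits 0.31 higher, and that of Slc39a14 differs by -0.01.

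Mt1 and Mt2 lie side by side on mouse chromosome 8 and encode the 2 metallothioneins that most tissues make in response to metals, glucocorticoids and inflammation. Mt1 read 9.72, 9.67 and 9.68 in the control arrays and 8.70, 8.65 and 8.69 in the PFOS arrays. Mt2 read 9.53, 9.62 and 9.54 in control and 8.35, 8.31 and 8.19 in PFOS. The PFOS and control arrays did not overlap for either gene, and the arrays of a group lay close together, with an SD of at most 0.085. The change was -1.01 ± 0.03 (limma SE, n = 3 arrays per group) for Mt1 and -1.28 ± 0.05 for Mt2. Of all tested genes, only 2.85% had a change below that of Mt1 and 1.82% one below that of Mt2.

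The value of Mt1 rests on 1422557_s_at, a probe set whose suffix marks probes shared between transcripts, so its signal need not come from Mt1 alone. The other probe set of Mt1, 1451612_at, is dimmer. It read 5.98, 5.97 and 6.24 in control and 5.86, 5.77 and 5.97 in PFOS, a change of -0.19 ± 0.08 with overlap of the groups. The change of Mt1 was thus -1.01 or -0.19, depending on the probe set, and the mean over both gave -0.60. Mt2 has a single probe set without such a suffix and does not depend on this choice.

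Mt3 encodes the metallothionein best known from brain. It read 7.07, 7.03 and 7.10 in control and 6.91, 7.002 and 6.96 in PFOS. The groups did not overlap, but the change of -0.11 ± 0.03 was small, and 24.3% of all genes had a lower one. Mt3 missed the threshold when control replicate 1 or 3, or PFOS replicate 1 or 3, was left out, with changes of -0.11, -0.09, -0.09 and -0.11.

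Mtf1 encodes the zinc-sensing factor MTF1. Its brightest probe set read 8.17, 8.05 and 8.14 in control and 7.76, 7.66 and 7.74 in PFOS, a change of -0.40 ± 0.04 (1.32-fold lower). All 5 of its probe sets were lower in PFOS, with changes from -0.40 to -0.10, and 4 of the 5 did not overlap between groups. Of all probe sets, 22.9% were lower without overlap. The 5 measure 1 gene on the same arrays and are not independent. Among them, 1440414_at (-0.10 ± 0.04) and 1452990_at (-0.11 ± 0.05) were not called. The dimmest of the 5, 1452990_at, lay under the floor, at 4.68 in control and 4.57 in PFOS.

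Promoter windows of Mt1, Mt2 and Slc30a1 are shown because these 3 are the textbook targets of MTF1 and their brightest probe sets were lower. Since the genes were picked in this way, their match counts say nothing of the change in PFOS. A part of MTF1 in the change was not tested. The windows are RefSeq sequences of build GRCm38.p6, 250 bases before to 50 after the annotated start, on the plus strand and written 5′ to 3′. Capitals mark matches to the core of the metal response element, searched as TGCACNC and TGCGCNC on both strands; a match on the minus strand appears as its reverse complement.
Mt1 (chr8:94178839-94179138): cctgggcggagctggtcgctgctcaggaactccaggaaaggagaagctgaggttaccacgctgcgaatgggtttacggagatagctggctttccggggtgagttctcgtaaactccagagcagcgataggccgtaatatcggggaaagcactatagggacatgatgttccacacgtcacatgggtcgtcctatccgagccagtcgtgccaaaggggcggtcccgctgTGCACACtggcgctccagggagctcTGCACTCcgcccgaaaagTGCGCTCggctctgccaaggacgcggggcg
Mt2 (chr8:94172368-94172667): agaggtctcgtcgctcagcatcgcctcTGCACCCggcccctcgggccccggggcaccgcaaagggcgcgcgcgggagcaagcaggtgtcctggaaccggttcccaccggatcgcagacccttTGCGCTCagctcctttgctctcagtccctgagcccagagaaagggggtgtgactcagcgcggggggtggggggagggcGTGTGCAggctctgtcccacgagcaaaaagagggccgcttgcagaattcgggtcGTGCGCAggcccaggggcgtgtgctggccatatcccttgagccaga
Slc30a1 (chr1:191906531-191906830): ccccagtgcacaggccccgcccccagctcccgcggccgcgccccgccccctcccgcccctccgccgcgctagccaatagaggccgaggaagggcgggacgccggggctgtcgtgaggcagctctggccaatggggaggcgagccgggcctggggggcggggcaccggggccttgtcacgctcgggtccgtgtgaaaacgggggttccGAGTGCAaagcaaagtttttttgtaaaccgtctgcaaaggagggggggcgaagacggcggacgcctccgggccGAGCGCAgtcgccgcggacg
The Mt1 window held 3 matches, all on the gene's strand, which begin 23 bases before the start (position -23) and at positions 3 and 21 after it. The Mt2 window held 4, beginning at -223, -128, -50 and 5, and the Slc30a1 window held 2, at -43 and 31. Of 32851 promoter windows of the same length, 25.7% held at least 1 match, 7.11% at least 2, 1.97% at least 3 and 0.517% at least 4. Of the other members with a window, Slc30a10 held 3 matches, of which 2 overlap on opposite strands, Mt3 held 1, and 1 of the 2 windows of Slc39a8 held 1. Mtf1 and both windows of Slc39a10 held none. A match shows that these letters are present and not that the site is bound, and a window without one says nothing of sites elsewhere.

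Slc30a1 encodes the zinc exporter of the cell surface. Its brighter probe set read 9.16, 9.16 and 9.21 in control and 8.89, 8.89 and 8.91 in PFOS, without overlap, a change of -0.28 ± 0.03 (1.21-fold lower). The other probe set, at 6.71 in control and 6.79 in PFOS, had the opposite sign (0.08 ± 0.05) and overlapped between groups. The mean over both was -0.10, so the direction of Slc30a1 rests on its brighter probe set.

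Slc30a10, which exports manganese from liver, gut and brain cells in mouse and human, was the 1 gene that did not pass the filter. Its probe set 1438751_at read 5.13, 5.42 and 5.32 in control and 4.20, 4.42 and 4.42 in PFOS, a change of -0.94 ± 0.09 without overlap. The other, 1439934_at, went from a mean of 5.07 to 4.90 (-0.17 ± 0.07) with overlap. Both lay under the floor in both groups, where the background of the array sets much of the value, so the size of the change is uncertain.

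Slc39a8 encodes ZIP8, an importer of zinc and manganese at the cell surface and, in T cells, in lysosomes. Its brighter probe set read 7.64, 7.58 and 7.53 in control and 6.10, 5.79 and 5.79 in PFOS. The lowest control array lay well above the highest PFOS array, and the change was -1.69 ± 0.08 (3.22-fold lower). Only 0.687% of all genes had a lower change. The PFOS mean of 5.89 lay close to the filter floor of 5.62, so the size of the change is less certain than its direction. The second probe set, 1448482_at, lay far under the floor at 4.21 in control and 4.45 in PFOS and went the other way, by 0.24 ± 0.06.

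Slc39a10 encodes ZIP10, a cell-surface zinc importer that B cells need to survive and respond, and a gene that MTF1 is known to hold down in mouse cells. Its brighter probe set read 8.76, 8.70 and 8.69 in control and 9.12, 8.97 and 8.99 in PFOS. The groups did not overlap, and the change was 0.31 ± 0.04 (1.24-fold higher). Changes of this size or above were seen in 9.84% of all genes. The dimmer probe set, at 4.77 in control and 4.76 in PFOS and under the floor, showed no such difference (0.00 ± 0.04).

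Slc39a14 encodes ZIP14, which brings manganese, iron and zinc into liver and other cells and is raised in liver during inflammation. Its brightest probe set read 6.92, 6.96 and 6.82 in control and 6.82, 6.94 and 6.90 in PFOS. The groups overlapped, and the change was -0.01 ± 0.05. Of its other 3 probe sets, 2 overlapped between groups, and 1438490_at, under the floor, was higher by 0.17 ± 0.04.

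**Figure D2:**
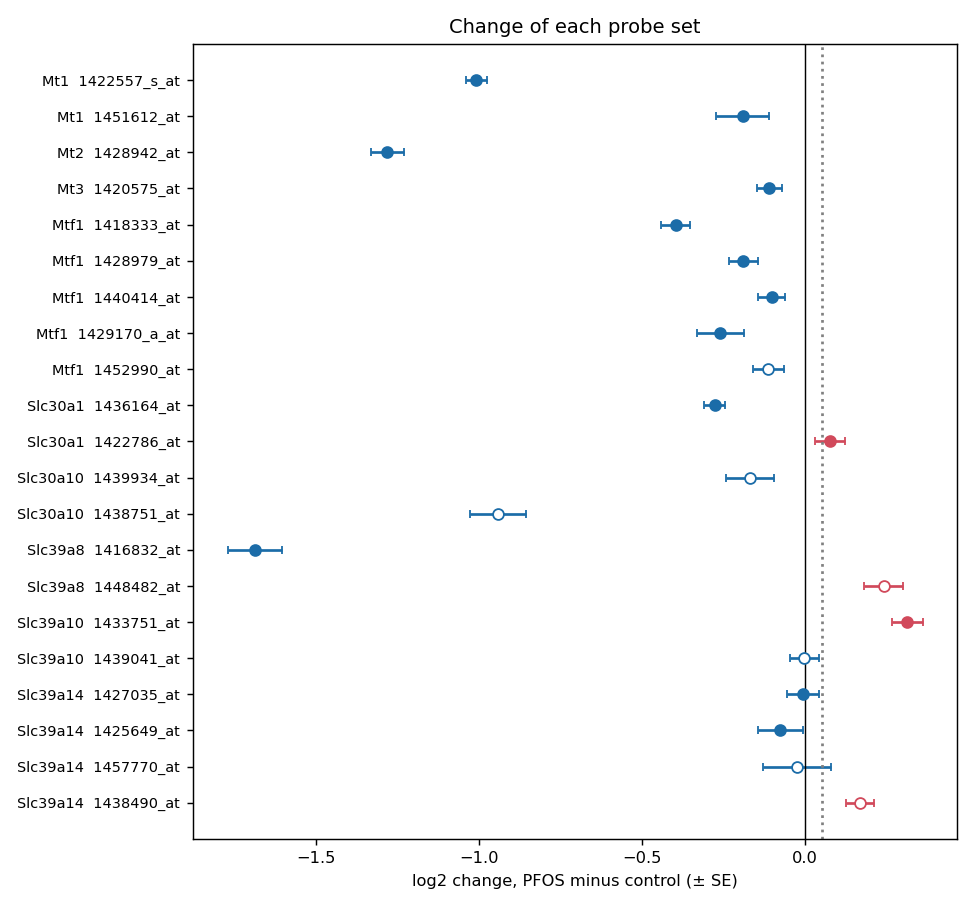
Log2 change, PFOS minus control, of each of the 21 probe sets (points) with limma's SE from the fit over all probe sets (bars); open points have a mean under the filter floor, blue is lower and red higher in PFOS, and the dotted line is the median change of all genes, 0.05. The brightest probe sets of Mt1, Mt2 and Slc39a8 lie at or below -1.01, all 5 of Mtf1 lie below 0, and the 2 of Slc39a8 and of Slc30a1 point in opposite directions.

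**Figure D3:**
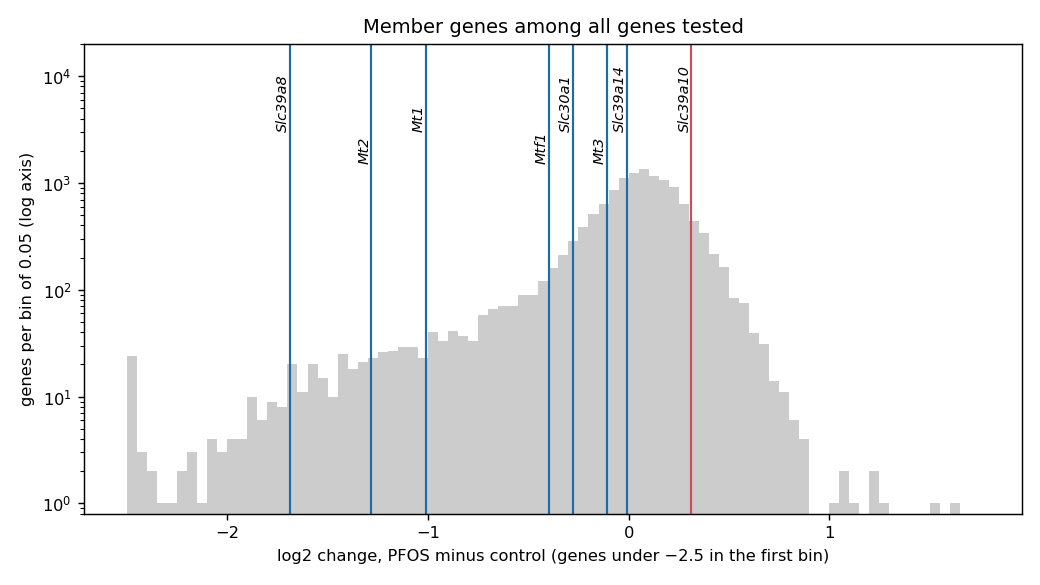
Number of genes (log axis) per bin of 0.05 of the log2 change, PFOS minus control, for all 13101 genes tested, with lines at the 8 members that passed the filter (blue lower, red higher). Slc39a8, Mt2 and Mt1 stand in the lower tail, with 0.687%, 1.82% and 2.85% of genes below them, and Slc39a10 stands on the upper shoulder.

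The order of the 8 changes, from lowest to highest, was Slc39a8, Mt2, Mt1, Mtf1, Slc30a1, Mt3, Slc39a14 and Slc39a10. This order is that of the brightest probe sets: with the mean over probe sets Mt3 (-0.11) and Slc30a1 (-0.10) changed places within their errors, and by its dimmer probe set (-0.19) Mt1 would follow Mtf1 and Slc30a1. The genes whose profile over the 6 arrays was nearest that of Mt1, by root mean square difference after centring each gene, were Stom, a red cell membrane protein (0.014 log2 units), the collagen gene Col3a1 (0.017), Nudt4 (0.017) and the replication factor Mcm5 (0.020). The distance between Mt1 and Mt2 was 0.15. Nearest to Slc39a10 were Pnrc1 (0.011), Inf2 (0.013), Nsa2 (0.015) and Erbin (0.016). With 2 groups this likeness mostly says that the changes were of the same size.

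Most other zinc transporters differed little between the groups, and 1 was clearly lower. Of 19 further SLC30 and SLC39 genes, listed by family, 15 were measured; 6 of these rose, 1 fell and 8 were not called, where 40.6% of all genes rose and 26.0% fell. Their median change of 0.08 was close to the 0.05 of all genes. Slc30a9, a zinc transporter of mitochondria, read 9.80, 9.81 and 9.80 in control and 8.96, 8.97 and 8.98 in PFOS and fell by 0.83 ± 0.02 (1.78-fold lower; limma adjusted p = 8.14e-08). Slc30a4, which loads zinc into vesicles and milk, rose by 0.44 ± 0.03 (limma adjusted p = 5.56e-06), from 8.04, 8.08 and 8.08 to 8.54, 8.50 and 8.49.

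Among the other called genes, changes were smaller. Slc30a7, a Golgi carrier that supplies zinc to alkaline phosphatase, rose by 0.21 ± 0.03 (limma adjusted p = 0.000248), and both of its probe sets went the same way. Slc39a9, of the Golgi, rose by 0.19 ± 0.04 and Slc39a1, of the cell surface, by 0.16 ± 0.04 (limma adjusted p = 0.003 and 0.00591). Slc30a9, Slc30a4, Slc30a7, Slc39a9 and Slc39a1 kept their calls under every alternative run. The rises of Slc30a5 and Slc39a7, each 0.08 (limma adjusted p = 0.0323 and 0.02), did not. Slc30a5 lost its call when control array 1 or 2, or PFOS array 1 or 2, was left out (limma adjusted p from 0.0547 to 0.0966). Slc39a7 lost it without control array 1 or PFOS array 2 (0.0544 and 0.054). Scaling on ribosomal protein genes took the call from both (limma adjusted p = 0.626 and 0.632). Slc30a5 also lost it without a filter (0.053) and with arrays centred on their median (0.0731). Slc39a6, which pairs with ZIP10 at the cell surface, differed by 0.07 ± 0.03 and was not called (limma adjusted p = 0.0907), and 1 of its other probe sets fell. With the mean over its probe sets Slc39a6 was called lower (-0.08, limma adjusted p = 0.0406), and it was called higher with the replicate block, array weights, quantile normalization or scaling on labelling spikes and without control array 1 (limma adjusted p from 2.51e-07 to 0.0418), so its direction is not settled. Not measured above the floor were Slc30a8, Slc39a2, Slc39a4 and Slc39a12, nor the skin metallothionein Mt4.

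**Figure D4:**
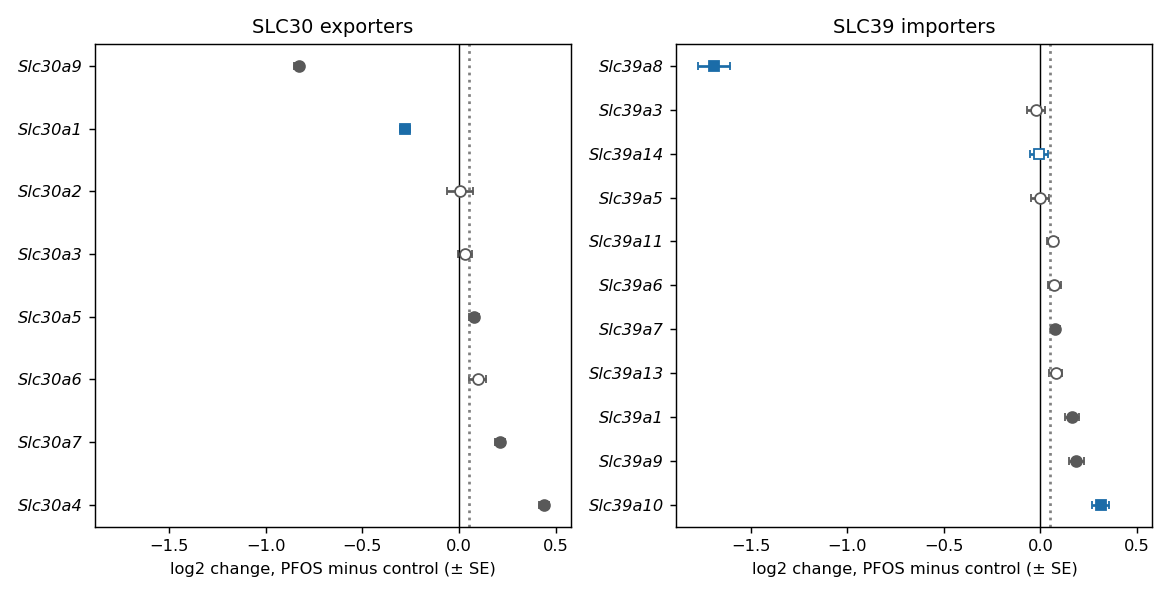
Log2 change, PFOS minus control, with limma's SE (bars) for all SLC30 (left) and SLC39 (right) genes that passed the filter; blue squares are the members described above, grey circles the other 15 genes, filled symbols were called and open ones were not. Slc39a8 at -1.69 and Slc30a9 at -0.83 stand apart on the lower side, and the other genes of the list of 15 lie between -0.02 and 0.44.

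Other metal genes and genes tied to MTF1 or glucocorticoids are given by their counts, to be read beside the 26.0% of all genes that fell and the 40.6% that rose. Of 11 copper genes, 6 fell and 3 rose (median -0.15), with the copper exporter Atp7b at -1.02 ± 0.07, the cytochrome oxidase assembly factor Cox11 at -0.53 ± 0.04 and the copper importer Slc31a1 at -0.41 ± 0.05 (limma adjusted p = 1.74e-05, 1.62e-05 and 0.000192). The dimmer probe sets of Atp7b, 2 in number, did not fall. The other probe set of Slc31a1, also above the floor, changed by only -0.09 and was not called. That of Cox11, under the floor, was higher by 0.16. Of 4 manganese genes, 3 rose and 1 fell (median 0.15), and the one that fell was the metal ion importer Slc11a2 (-0.19 ± 0.03, limma adjusted p = 0.000853). Its other 3 probe sets, all above the floor, fell by more, with changes of -0.45, -0.57 and -0.82. Of 6 further genes tied to MTF1 in mouse, 3 rose and 2 fell (median 0.12). Gclc, which starts glutathione synthesis, fell by 0.93 ± 0.03 (limma adjusted p = 2.11e-07) and the growth factor Pgf by 0.23. Selenow, Ndrg1 and the iron exporter Slc40a1 rose by 0.16 to 0.19, though a dimmer probe set of Ndrg1 was lower. Of 10 glucocorticoid-induced genes, 6 fell and 3 rose (median -0.19), with Dusp1 at -0.76 ± 0.03 and Sgk1 at 0.32 ± 0.02.

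Markers of cell types differed between the same arrays, and their counts stand beside 26.0% of all genes lower and 40.6% higher. All 12 hepatocyte markers fell, and their summed linear level went from 6123 to 6213 in control to 536 to 568 in PFOS; 7 of the 12 had PFOS means under the floor of 5.62 and so passed the filter through their control levels, which fixed their direction. All 11 measured markers of red cell precursors fell (sum 37096 to 37867 against 17130 to 17334), as did all 10 of dividing cells (29390 to 29491 against 10121 to 10161). Of 7 measured neutrophil markers 6 fell and 1 rose (sum 5578 to 5663 against 3897 to 3996). T cell markers rose in 9 of 9 cases (sum 5281 to 5338 against 7929 to 8020), B cell markers in 8 of 9 (14185 to 14330 against 19701 to 19933) and red pulp macrophage markers in 6 of 10 (8750 to 8865 against 12448 to 12484). Stroma and endothelium split, with 4 of 9 higher and 3 lower (12638 to 12902 against 13188 to 13351). All listed markers of B cells, T cells and red pulp macrophages that the array names passed the filter, as did the 12 hepatocyte markers, which spleen cells are not known for. RMA gives no value of 0, so absence of a marker cannot be read from these arrays. The lower members Mt1, Mt2, Mt3, Mtf1, Slc30a1, Slc39a8 and, under the floor, Slc30a10 shared their direction with the hepatocyte, red cell precursor, dividing cell and most neutrophil markers. The 3 lower stroma markers, Col1a1 (-1.06), Col3a1 (-1.01) and Acta2 (-0.25), had that direction too. The higher level of Slc39a10 shared its direction with the B cell, T cell, part of the red pulp macrophage and 4 of the stroma and endothelium markers. With 2 groups a shared direction does not tell these lists apart, and their part in the results was not tested.

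RMA levels are relative to the whole array, and the scale matters for the small changes. The probe sets of bacterial transcripts taken as labelling spikes, those of Trpn included, were lower in PFOS (means of 5.79 to 5.84, against 6.29 in each control array). Scaling the arrays on these 27 probe sets added 0.48 to every change. Under it, Mt1, Mt2 and Slc39a8 were still lower, with changes of -0.53, -0.81 and -1.21, while the median of all genes was 0.53 and 93.8% of calls were higher, against 61.0% in the deposited values. Mtf1, Slc30a1 and Mt3 then turned to 0.08, 0.20 and 0.37, all of them below the median of all genes, and Slc39a14 to 0.47. Scaling on ribosomal protein genes gave 45.7% of calls higher and turned none of the 8 genes.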

How the data were processed

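Spleen RNA was measured on 6 arrays, labelled as biological replicates. The deposited values are log2 levels that the authors made with RMA, per the submitters' processing notes; for its version, and for any filter or test of theirs, the sources used here give nothing. The table held 45101 probe sets: 64 array controls, 34945 with 1 gene symbol, 932 with several and 9160 with none. All 21 probe sets of the members matched a gene ID of assembly GRCm38.p6. Members, gene lists and tests were chosen with earlier results of these data known. Named genes were the members, the genes of the pathway lists and the 4 nearest profiles to Mt1 and Slc39a10.

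For the gene test, probe sets without exactly 1 symbol or with a mean below a floor of 5.62 (the 40th percentile over non-control probe sets) were left out, and the brightest probe set stood for its gene, which left 13101 genes. The test was limma's (version 3.58.1, R 4.3.3; lmFit, eBayes), two-sided. P-values were adjusted over all genes by Benjamini-Hochberg, and an adjusted p under 0.05 was a call. A second fit took all 45037 non-control probe sets. Errors of brightest probe sets are from the first fit and of other probe sets from the second. Folds are 2 to the power of the log2 change. Both fits were tested on simulated data. The number of arrays limits the precision. No 2 arrays held identical values. Other settings covered the replicate block, filter, scaling, prior, weights, probe set choice, threshold and leaving out each array; 1 (labelling spikes without Trpn) was chosen after seeing the data.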

Additional observations from a re-analysis of the deposited data

How the results depend on the processing

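The labels number the arrays of both groups 1 to 3. Deviations of same-numbered arrays correlated at 0.32, 0.14 and 0.097, and 4 of 6 arrays correlated best with their own number. The labels do not call these numbers pairs, and the main fit did not use them. Whether arrays of the same number share a batch was not tested. With the replicate block 9050 genes were called against 8730 without, the counts of called member genes did not change, and Slc39a6 was called as well. Scaling on the labelling spikes gave 11912 higher and 792 lower genes, 4 higher and 3 lower members, 16 higher and 4 lower member probe sets and 14 higher zinc transporters of the list of 15. With scaling that left out the Trpn probe sets and added 0.53 to every change, these were 12065 and 723, 5 and 3, 17 and 4, and 14. Changes that turned sign under these scalings were those of Mt3 (0.37 and 0.42), Mtf1 (0.078 and 0.14), Slc30a1 (0.20 and 0.26) and Slc39a14 (0.47 and 0.53, from -0.01). Of the zinc transporter list, 10 were higher with quantile normalization, and 2 were lower without a filter (Slc39a2 was then tested) and with the mean over probe sets. At an adjusted p under 0.01, 1 member probe set was called higher. Without _s_at, _x_at and _a_at probe sets Mt1 changed by -0.19 and was not called; the stricter filter left Slc39a8 out. Leaving out 1 array at a time gave 7960 to 8502 called genes (4801 to 5177 higher, 3086 to 3325 lower), 5 to 6 lower and 1 to 1 higher members, 7 to 9 lower and 2 to 3 higher member probe sets, and 4 to 6 higher and 1 to 1 lower zinc transporters. Mt1 then ranged from -1.02 to -0.99, Mt2 from -1.32 to -1.23, Slc39a8 from -1.79 to -1.64 and Slc39a10 from 0.27 to 0.34. Causes of these shifts were not tested beyond the sets left out. Levels near the floor limit Slc30a10, the PFOS side of Slc39a8 and the dimmer probe sets.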
